A study of Mus musculus with 2148 samples.

Results

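Medullary thymic epithelial cells of adult Aire-KO mice were compared between the 2 sort gates that separate mature from immature cells, to describe which parts of the maturation were measured in mice that lack Aire. The members were chosen by genotype and gate alone. Cells labelled adult Aire-KO mTEChi filled plates 7, 8, 13 and 14, with 81, 86, 87 and 84 cells, and cells labelled adult Aire-KO mTEClo filled plates 10 and 11, with 73 and 81 cells. Together they are 24.8% of the cells of the series. All came from male Aire-deficient mice of 5 weeks on the C57BL/6 background. Cells without CD45 and Ly51 and with EpCAM on the surface were split by high (mTEChi) or low (mTEClo) surface MHC class II and sorted singly into plates. The adult wild-type (WT) C57BL/6 cells set beside them, sorted the same way, were mTEChi on 9 plates from mice of 4 to 6 weeks, 1 of these plates from females, and mTEClo on 5 plates from males of 4, 5 or 8 weeks. RamDA-seq, a full-length method whose reverse transcription starts from random as well as oligo(dT) primers on total RNA, gave whole-number counts of reads per gene in each cell.

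Cells of 1 plate are not replicates, so reads were summed per plate. The 4 Aire-KO mTEChi plates held 53267982 to 93264622 reads and the 2 Aire-KO mTEClo plates 41231723 and 50500323 reads, with a median of 812728 against 532926 reads per cell. Mitochondrial genes took 0.584% to 0.888% of the reads of mTEChi plates and 1.016% to 1.13% of those of mTEClo plates. The labels number no mice, and the gates share no plate: plates of a gate may hold cells of the same mice, p-values measure the spread between plates, and gate and plate cannot be told apart. Levels below are reads per 1000000 reads of the plate (CPM). Values of mTEChi plates are always in the order 7, 8, 13, 14 and those of mTEClo plates in the order 10, 11. A gene was called when edgeR's quasi-likelihood test, fitted on all 20 adult mTEC plates and adjusted over all genes (Benjamini-Hochberg), gave an adjusted p under 0.05 together with a change of 2-fold or more. In such sums, fewer cells with a transcript and less of it in each cell cannot be told apart, and overlapping or antisense genes are not separated, because the reads were counted without regard to strand.

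Medullary epithelial cells show developing T cells the antigens of other tissues. As they mature under signals of the RANK receptor and the NF-kB pathway, they gain surface MHC class II and costimulatory molecules and switch on Aire, which broadens the set of tissue-restricted antigens they transcribe. Other fates branch off in the medulla, among them cells that resemble tuft cells, keratinocytes or gut epithelium.

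The labels were first checked against Aire and 3 markers. Aire (chromosome 10, 78030022 to 78043610, minus strand, GRCm38) was read at 25.5, 36.9, 26.01 and 17.02 CPM in mTEChi and 0.0970 and 0.198 CPM in mTEClo. WT mTEChi plates ranged from 869.8 to 1789.7 CPM, so that every Aire-KO mTEChi plate was below every WT mTEChi plate, while WT mTEClo plates ranged from 13.9 to 56.8 CPM. The reads that remained in the Aire-KO cells were still unequal between gates (log2 fold change 7.50, SE 0.66, adjusted p = 6.02e-07), and after each cell was thinned to 200000 reads a read of Aire was found in 52.1% of mTEChi and 1.95% of mTEClo cells (64.2% and 2.60% unthinned). Gene counts do not say which exons those reads cover.

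Cd80, a costimulatory ligand and the usual surface marker of mature cells (chromosome 16, 38455561 to 38496335, plus strand), stood at 294.7, 230.96, 361.2 and 260.8 CPM in mTEChi and 9.90 and 18.1 CPM in mTEClo. Fezf2, a transcription factor that drives tissue antigens of its own (chromosome 14, 12342094 to 12348189, minus strand), stood at 326.2, 373.1, 386.8 and 370.5 CPM against 98.98 and 82.6 CPM. Ccl21a, a chemokine of immature cells (chromosome 4, 42772860 to 42773993, minus strand), ran the other way, at 5.51, 7.94, 4.03 and 17.0005 CPM in mTEChi and 71.3 and 59.4 CPM in mTEClo. The plates of the gates did not overlap for any of the 3 markers, and each was called. The log2 fold changes were 4.44, SE 0.34, adjusted p = 1.16e-07 for Cd80, 2.07, SE 0.25, adjusted p = 1.57e-05 for Fezf2 and −2.88, SE 0.68, adjusted p = 0.00610 for Ccl21a. Without mTEClo plate 10 the adjusted p of Ccl21a was 0.0518, and its reads are uncertain because the genome holds near-identical copies of this gene.

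**Figure D1:**
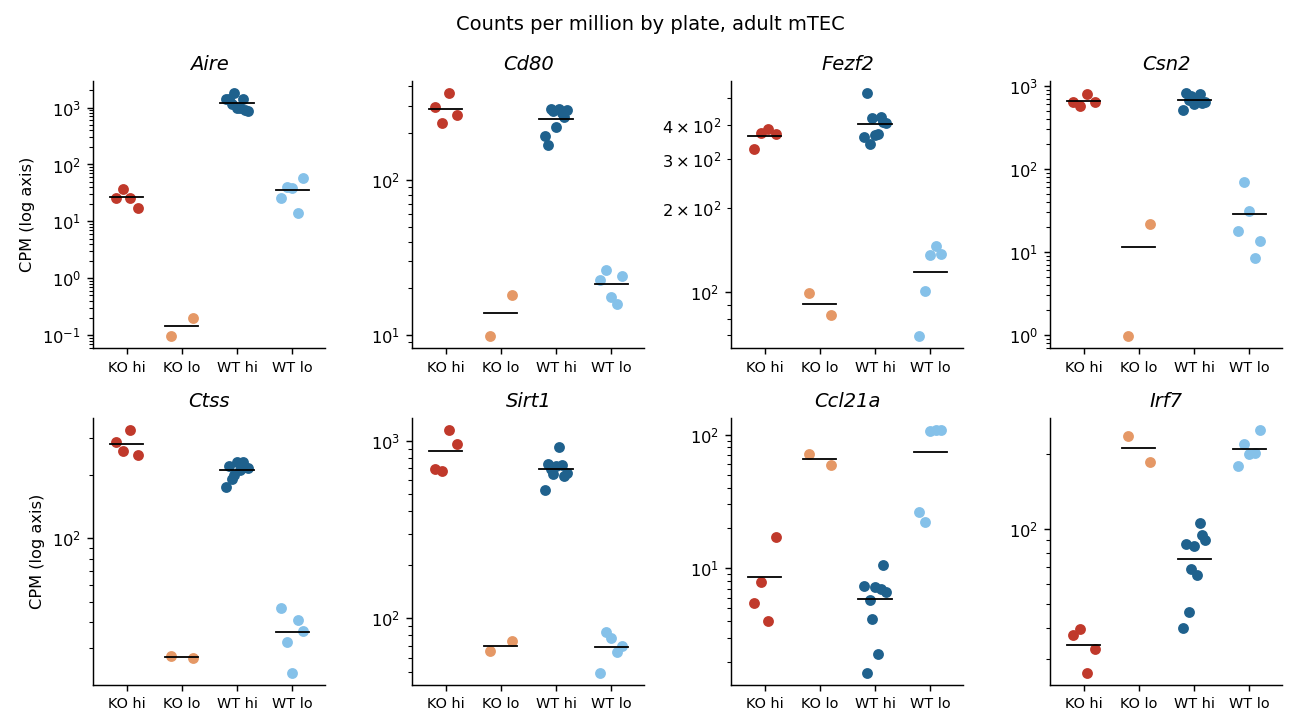
Reads per 1000000 reads (CPM) in each plate (log axis) for 8 genes in the 4 adult groups, Aire-KO (KO) and wild type (WT), mTEChi (hi) and mTEClo (lo); each point is a plate and each line the mean of a group. Aire is lower in every Aire-KO mTEChi plate than in every WT mTEChi plate, while Cd80, Fezf2, Csn2, Ctss and Sirt1 are higher and Ccl21a and Irf7 lower in all mTEChi than in all mTEClo plates of the same genotype.

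Of 35880 genes tested, 3486 were higher in Aire-KO mTEChi than in Aire-KO mTEClo, which is 9.72% of those tested, and 2121 were lower (5.91%). Of the higher genes, 2059 are protein-coding, 49.8% were read in at least 50% of the mTEChi cells and 50.2% in fewer. Of the lower genes, 59.7% were read in at least 50% of the mTEClo cells. All 4 mTEChi plates lay above both mTEClo plates in 3440 of the 3486 genes called higher, and below both in 2091 of the 2121 called lower; over all genes tested, 22.02% and 22.9% were separated in these ways. These counts rest on plates. When cells were summed per age and sex label instead, each Aire-KO gate became 1 pool that was assumed to vary like the WT pools, and edgeR called 0.442% of 38245 genes higher and 16 genes (0.0418%) lower, all of which were also called between plates. Without mTEClo plate 10 the calls were 4.43% and 2.603% of the genes tested, and without plate 11 they were 4.476% and 2.674%.

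The same contrast in WT cells called 9182 genes higher (25.6%) and 3496 lower (9.74%). Of the genes higher in Aire-KO mTEChi, 2674 were also higher in WT mTEChi, 76.7% of the Aire-KO list and 29.1% of the WT list. The lower genes shared by both were 72.5% of the Aire-KO list and 43.99% of the WT list. No gene higher in Aire-KO mTEChi was called lower in WT mTEChi, and 26 genes lower in Aire-KO mTEChi were called higher in WT mTEChi. Across genes, the log2 fold changes of the 2 genotypes, which share no plate, had a Pearson r of 0.519 and a Spearman rho of 0.600 over all 35880 genes, and of 0.876 and 0.867 over the 9195 genes with a mean of at least 20 CPM. Genes are not independent replicates, so no p is given.

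**Figure D2:**
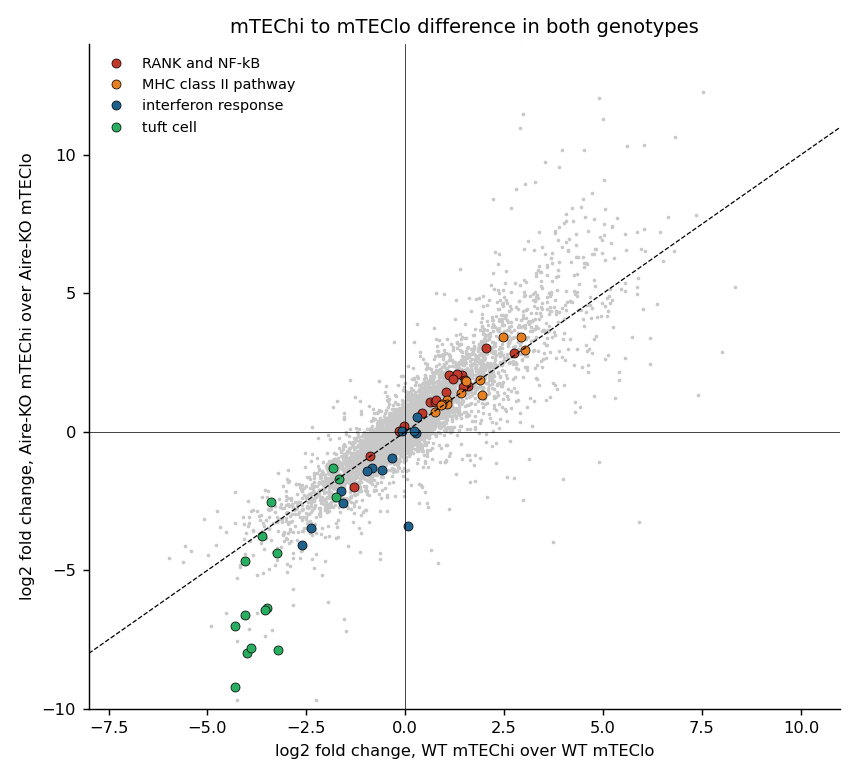
Log2 fold change of mTEChi over mTEClo in WT cells (x axis) and in Aire-KO cells (y axis) for the 9195 genes with a mean of at least 20 CPM, with 4 lists coloured; the dashed line marks equal values, and 1 gene lies beyond the y axis. RANK and NF-kB and MHC class II genes lie mostly above 0, and tuft cell and interferon genes mostly below 0, in both genotypes (Pearson r of 0.876 over the genes drawn).

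The 9182 genes higher in WT mTEChi were then split by the share of WT mTEChi cells with a read. In the class read in at least 50% of those cells (16.9% of the 9182), 76.5% were also called higher in Aire-KO mTEChi, and the median ratio of their mean level in Aire-KO mTEChi to that in WT mTEChi was 1.023 (quartiles 0.747 and 1.321). Among the 3394 genes read in 10% to under 50%, 34.1% were called and the median ratio was 0.674. Among the 4239 genes read in under 10%, 7.83% were called, the log2 fold change had the same sign in 68.8%, and the median ratio was 0.134 (quartiles 0.0165 and 0.659). The fewer WT cells read a gene, the lower was its level in Aire-KO relative to WT. Genes lower in WT mTEChi, compared by their level in mTEClo, had median ratios of 0.983, 0.858 and 0.882 in the same 3 classes. The WT contrast chose these genes and rests on more plates than the Aire-KO contrast, so the ratios are a description with no test.

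**Figure D3:**
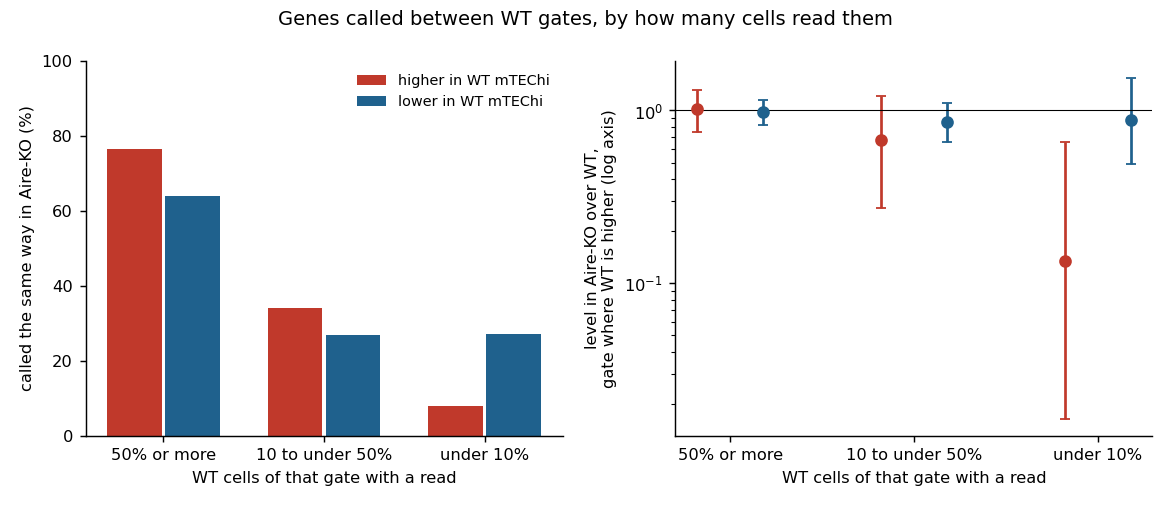
Genes called between the WT gates, grouped by the share of WT cells of the gate with the higher level that have a read; bars (left) give the percent called the same way between the Aire-KO gates, and points (right, log axis) the median ratio of the mean level in Aire-KO to that in WT in that gate, with quartiles as error bars. For genes higher in WT mTEChi, the percent runs from 76.50 down to 7.83 and the median ratio from 1.023 down to 0.134 as fewer cells read the gene.

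In all, 280 genes of 26 lists were tested. Of these, 76 were called higher, 64 of them also in WT, and 37 were called lower, 27 of them also in WT. Every count of a list below is to be read beside the shares over all genes, 9.72% higher and 5.91% lower. With 1 pool per gate, 10 were called higher and 1 lower. The MHC class II pathway, which loads and presents peptides to CD4+ T cells, had 9 of 12 genes higher and none lower, with a median log2 fold change of 1.37 against 0.08 for all genes tested. The gate itself selected on the protein of this pathway. Ctss, the protease that removes the invariant chain, stood at 286.95, 260.8, 327.8 and 248.8 CPM in mTEChi and 27.7 and 27.1 CPM in mTEClo (log2 fold change 3.43, SE 0.24, adjusted p = 4.83e-08). H2-Ob, a chain of the complex that restrains peptide loading, stood at 255.3, 229.05, 365.4 and 200.4 CPM against 27.6 and 24.2 CPM (3.42, SE 0.32, adjusted p = 1.14e-06). Both were separated by a wide gap, whereas the genes of the presenting molecule differed less.

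H2-Aa, the alpha chain of that molecule, stood at 1292.01, 1630.8, 1377.5 and 1581.6 CPM in mTEChi and 735.5 and 670.03 CPM in mTEClo (log2 fold change 1.13, SE 0.31, adjusted p = 0.0147). Ciita, the master activator of the class II genes, stood at 635.6, 715.3, 979.5 and 937.6 CPM against 430.5 and 223.1 CPM (1.39, SE 0.42, adjusted p = 0.0250). The call of H2-Aa was lost without mTEClo plate 10 (adjusted p = 0.0872) or 11 (0.135), and that of Ciita without mTEChi plate 13 (0.0593) or mTEClo plate 11 (0.288). Cd74, the invariant chain, H2-Ab1 and H2-Eb1 had log2 fold changes of 0.72, 0.96 and 0.99 and were not called. With plate 10 or 11 left out, 7 and 6 of the 12 genes were higher, and with 1 pool per gate Ctss alone was called.

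Of the 10 costimulatory and coinhibitory genes, 6 were higher and 1 lower. Icosl, the ligand of ICOS on T cells, stood at 600.4, 696.9, 948.7 and 1024.4 CPM in mTEChi and 46.1 and 41.8 CPM in mTEClo (log2 fold change 4.29, SE 0.43, adjusted p = 2.13e-06). Cd40, the receptor through which T cells signal back, stood at 111.1, 147.9, 176.1 and 232.96 CPM against 25.3 and 14.1 CPM (3.15, SE 0.43, adjusted p = 5.88e-05). Il15, a cytokine for natural killer and memory T cells, stood at 146.1, 140.3, 136.8 and 95.1 CPM against 17.8 and 13.6 CPM (3.12, SE 0.31, adjusted p = 1.70e-06). For all 3 the plates of the gates lay far apart.

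Cd86, which like Cd80 binds CD28 on T cells, stood at 30.7, 23.2, 53.4 and 18.1 CPM in mTEChi, and mTEClo cells held 1 read of it in all. The ratio of the summed levels was 3139.9 (exact 95% interval 563.4 to 1.24e+05, counting error only). A read of Cd86 was found in 41.1% of mTEChi and 0.649% of mTEClo cells. After thinning it was found in 37.3% of mTEChi cells and in 0 mTEClo cells, which by counting error alone allows a share of cells with a read of up to 1.95%. Cd80, Cd86 and Icosl were also called with 1 pool per gate. The inhibitory ligand Cd274 (PD-L1), at 318.8, 252.9, 247.8 and 232.5 CPM in mTEChi and 243.3 and 211.03 CPM in mTEClo, was not called (log2 fold change 0.28, SE 0.18, adjusted p = 0.307). The 1 gene called lower was Vtcn1, another inhibitory ligand, with 1 read in mTEChi, and it lost the call whenever any 1 Aire-KO plate was left out (adjusted p from 0.0561 to 0.193).

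MHC class I and the immunoproteasome had 3 of 12 genes higher (Tapbp, Psmb10 and Psme2), none lower, and a median of 0.41. Without mTEClo plate 11 the change of Tapbp was under 2-fold (adjusted p = 0.0230). B2m, the light chain of MHC class I, stood at 938.1, 1244.2, 944.3 and 1116.05 CPM in mTEChi and 854.1 and 877.1 CPM in mTEClo and was not called (log2 fold change 0.36, SE 0.20, adjusted p = 0.237). The class I list was therefore nearer to the median of all genes than the class II list.

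Of the 18 genes of the RANK and NF-kB list, 13 were higher and 1 lower, with a median of 1.53. RANK, encoded by Tnfrsf11a, signals through TRAF6 and the kinase NIK to both branches of NF-kB. Because the list includes targets of the pathway itself, the promoters of its members were searched for a pattern of NF-kB sites (GGG, any 2 bases, then TTTCC) on either strand, from 250 bases before to 50 after each gene start of the RefSeq annotation on GRCm38.p6. It was found for 6 of the 15 members with an entry (Nfkb2, Nfkbia, Rel, Tnfaip3, Traf2 and Traf3) and for 1.89% of all 27025 genes with an entry. A gene counted when any of its promoters held a match. Of the 32851 single promoters, 1.63% held one. It was found for 3.37% of the genes called higher, 1.98% of those called lower and 1.719% of those not called, among genes with an entry. The 4 members that were called and hold a match before the start of a promoter entry are shown, 250 bases each, 5′ to 3′ toward the gene with the match in capitals, since they include the 1 gene that was lower. The match starts 11 bases before the gene in Nfkb2 (chr19:46304487-46304736, plus strand), 29 in Nfkbia (chr12:55492648-55492897, minus), 91 in Rel (chr11:23770970-23771219, minus) and 12 in Tnfaip3 (chr10:19015411-19015660, minus).
Nfkb2: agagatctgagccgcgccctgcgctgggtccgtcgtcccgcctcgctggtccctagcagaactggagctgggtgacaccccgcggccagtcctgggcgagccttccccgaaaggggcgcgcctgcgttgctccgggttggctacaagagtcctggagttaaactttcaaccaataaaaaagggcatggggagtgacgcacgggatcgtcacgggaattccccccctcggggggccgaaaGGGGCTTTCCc
Nfkbia: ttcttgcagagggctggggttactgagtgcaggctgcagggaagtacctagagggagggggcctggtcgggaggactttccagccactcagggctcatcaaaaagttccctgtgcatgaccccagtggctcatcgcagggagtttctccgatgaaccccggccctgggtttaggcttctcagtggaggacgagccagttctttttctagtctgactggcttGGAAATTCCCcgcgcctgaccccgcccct
Rel: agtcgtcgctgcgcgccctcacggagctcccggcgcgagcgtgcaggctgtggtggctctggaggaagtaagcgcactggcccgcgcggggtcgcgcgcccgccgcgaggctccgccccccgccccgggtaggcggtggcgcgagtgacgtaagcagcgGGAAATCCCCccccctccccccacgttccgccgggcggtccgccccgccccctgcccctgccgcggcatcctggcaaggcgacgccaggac
Tnfaip3: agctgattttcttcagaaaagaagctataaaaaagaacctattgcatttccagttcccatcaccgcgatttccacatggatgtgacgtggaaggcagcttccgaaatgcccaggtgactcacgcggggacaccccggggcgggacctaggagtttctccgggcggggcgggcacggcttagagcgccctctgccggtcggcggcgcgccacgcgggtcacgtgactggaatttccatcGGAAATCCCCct
A match describes the sequence and is not a measured site.

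Among the receptors, Tnfrsf11a stood at 662.2, 679.5, 809.9 and 854.1 CPM in mTEChi and 211.4 and 166.8 CPM in mTEClo (log2 fold change 2.06, SE 0.23, adjusted p = 6.00e-06). Its soluble decoy, osteoprotegerin (Tnfrsf11b), stood at 140.3, 203.2, 217.2 and 318.98 CPM against 22.8 and 40.6 CPM (2.86, SE 0.68, adjusted p = 0.00611), a call lost without plate 10 (0.105). The receptor of the pathway and its decoy were thus both higher in mTEChi. Ltbr, the lymphotoxin receptor, had a log2 fold change of −0.87 and was not called.

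Among the adaptors, Traf6 stood at 354.2, 415.7, 455.6 and 360.3 CPM against 96.3 and 101.6 CPM (2.08, SE 0.14, adjusted p = 4.83e-08), and Traf1, a target and adaptor of the pathway, at 256.4, 212.8, 264.5 and 118.5 CPM against 23.1 and 32.4 CPM (3.02, SE 0.33, adjusted p = 6.22e-06). These were the 2 genes of the list called with 1 pool per gate. Of the transcription factors, Relb, which carries the noncanonical branch, stood at 363.9, 383.8, 424.04 and 372.6 CPM against 116.5 and 79.4 CPM (2.05, SE 0.27, adjusted p = 3.31e-05), Nfkb2 at 481.9, 486.8, 601.9 and 563.5 CPM against 215.6 and 149.8 CPM (1.62, SE 0.23, adjusted p = 9.92e-05) and Rel at 254.9, 251.99, 257.8 and 169.7 CPM against 63.7 and 70.7 CPM (1.87, SE 0.30, adjusted p = 0.000236). Rela and Nfkb1 had log2 fold changes of 0.20 and 0.02 and were not called.

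Among the feedback regulators, the inhibitor Nfkbia stood at 637.7, 655.9, 634.8 and 516.3 CPM against 252.2 and 222.7 CPM (1.44, SE 0.18, adjusted p = 2.38e-05), and the ubiquitin ligase Birc3 was higher too (1.904, SE 0.19, adjusted p = 1.70e-06). The exception was Tnfaip3 (A20), the deubiquitinase that restrains NF-kB signalling. It stood at 68.6, 36.5, 39.1 and 65.9 CPM in mTEChi and 245.3 and 189.6 CPM in mTEClo (log2 fold change −1.99, SE 0.29, adjusted p = 0.000114), and it was lower in WT mTEChi as well (−1.30). Nfkb2, Nfkbia and Rel, which were higher, and Tnfaip3, which was lower, share the pattern in the promoters shown. With mTEClo plate 10 or 11 left out, 11 and 10 genes of the list were higher, and 1 and 2 lower.

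Of 13 regulators linked to mature medullary cells, 4 were higher and none lower, with a median of −0.39; they were Aire, Fezf2, Irf8 and Sirt1. Sirt1, a deacetylase known to act on the Aire protein, stood at 698.3, 680.7, 1154.04 and 962.9 CPM in mTEChi and 64.95 and 74.2 CPM in mTEClo (log2 fold change 3.73, SE 0.28, adjusted p = 7.32e-08) and was also called with 1 pool per gate. Irf8, an interferon regulatory factor, stood at 708.5, 746.5, 807.8 and 619.6 CPM against 165.2 and 115.6 CPM (2.43, SE 0.24, adjusted p = 1.77e-06). Among genes that work with Aire on chromatin, the remodeler Chd4 stood at 199.8, 228.96, 187.8 and 281.9 CPM against 411.96 and 450.3 CPM, short of a 2-fold change (−0.88, SE 0.24, adjusted p = 0.0147), and Top1 and Hipk2 were not called.

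PRC2, the complex that writes the repressive mark H3K27me3, had 4 of 11 subunits or cofactors higher and 1 lower (all genes: 9.72% and 5.91%). The core subunits Eed and Suz12 had log2 fold changes of 0.25 and −0.06 and were not called. The catalytic subunit Ezh2 was called (1.05, SE 0.30, adjusted p = 0.0194) and lost the call without mTEChi plate 13 (0.0543) or 14 (0.0439, with a change under 2-fold), or mTEClo plate 10 (0.235) or 11 (0.0622). The accessory subunit Aebp2 stood at 674.6, 709.3, 943.9 and 618.8 CPM against 167.3 and 190.4 CPM (2.12, SE 0.23, adjusted p = 4.08e-06), and Jarid2, with which it shares a subcomplex, was higher too (1.18, SE 0.24, adjusted p = 0.00212). Of the alternative Polycomb-like subunits, Phf19 was higher, at 18.5, 17.3, 15.8 and 11.3 CPM against 3.01 and 2.40 CPM, and Mtf2 lower, at 48.9, 42.1, 35.1 and 55.7 CPM against 97.1 and 131.999 CPM. The call of Mtf2 (−1.27, SE 0.31, adjusted p = 0.00703) was lost without mTEClo plate 11 (0.141).

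Tissue-restricted antigens were taken in 3 lists. Csn2, a milk casein known to be expressed without Aire, stood at 634.4, 567.5, 795.8 and 635.1 CPM in mTEChi and 0.970 and 21.7 CPM in mTEClo (log2 fold change 5.94, SE 1.005, adjusted p = 0.000437), and was read in 95.3% of mTEChi and 9.09% of mTEClo cells after thinning (98.5% and 11.04% before). Gad1, an enzyme of neurons and islets, was called (3.66, SE 1.21, adjusted p = 0.0414) but lost the call without mTEChi plate 7 (0.0579), 8 (0.0513) or 13 (0.0791), or mTEClo plate 10 (0.136) or 11 (0.292). Crp, a liver protein, stood at 15.4, 14.4, 14.4 and 7.22 CPM against 12.3 and 12.9 CPM and was not called.

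Of the 7 antigens linked to Fezf2, 4 were higher and none lower. Maoa, a monoamine oxidase, stood at 65.1, 99.7, 77.1 and 69.6 CPM against 3.27 and 6.69 CPM (log2 fold change 4.04, SE 0.42, adjusted p = 3.48e-06). Apob, a liver and gut lipoprotein, was uneven among the mTEChi plates, at 388.8, 11.6, 131.2 and 11.9 CPM against 0.873 and 0 CPM. Its call (adjusted p = 0.0314) was lost without mTEChi plate 7 (0.0593) or mTEClo plate 10 (0.0995) or 11 (0.224). With mTEClo plate 10 or 11 left out, 2 and 2 genes of this list were higher.

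Of the 14 antigens known to need Aire, 1 was higher and 1 lower between the Aire-KO gates (all genes: 9.72% and 5.91%). Between the WT gates 11 of these antigens were higher and none lower (all genes: 25.6% and 9.74%). Their summed level was 17.1 to 29.3 CPM in the Aire-KO mTEChi plates and 149.9 to 360.8 CPM in the WT mTEChi plates, without overlap. Ins2, the insulin gene, had no read in either Aire-KO gate. Iapp, an islet hormone, was the 1 called higher, at 3.91, 1.71, 1.98 and 2.697 CPM against 0.121 and 0 CPM (5.51, SE 1.18, adjusted p = 0.00301), a call held with 1 pool per gate (adjusted p = 0.0382) and lost without mTEClo plate 11 (0.0566). The 1 called lower was Muc2, a gut mucin with 2 reads in all of mTEChi, at 0.0485 and 2.46 CPM in mTEClo, and it lost the call without mTEClo plate 11 (0.770) or mTEChi plate 7 (0.0561) or 13 (0.0662). Tg, the thyroid hormone precursor, stood at 8.71, 20.1, 19.4 and 24.5 CPM against 3.57 and 0.0396 CPM and was not called (adjusted p = 0.0694).

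The genes with the largest differences were named by rule among those with at least 20 CPM in the higher gate and no overlap of plates. Of those read in at least 50% of mTEChi cells, the leading 6 were Crtac1, Il13, Tbx21, St6galnac3, Reln and Fabp12, all of them also higher in WT mTEChi. Il13, a type 2 cytokine (chromosome 11, 53631324 to 53634702, minus strand), stood at 169.7, 157.8, 249.5 and 132.4 CPM in mTEChi and 0.194 and 0.0990 CPM in mTEClo (log2 fold change 10.33, SE 1.55, adjusted p = 0.000148), with a read in 81.7% of mTEChi and 1.30% of mTEClo cells after thinning (86.7% and 3.896% before). Tbx21 (T-bet), a transcription factor best known from T cells (chromosome 11, 97098071 to 97115331, minus strand), stood at 117.6, 96.3, 130.7 and 42.4 CPM against 0.0728 and 0.0990 CPM (10.17, SE 0.89, adjusted p = 5.62e-07). Reln, a secreted guide of migrating neurons, stood at 94.3, 93.2, 233.7 and 263.3 CPM against 0.388 and 0.277 CPM (9.08, SE 1.15, adjusted p = 2.66e-05). Each of them was nearly silent in both mTEClo plates.

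Crtac1, a matrix protein of cartilage, had 3 reads in all of mTEClo, and the ratio of summed levels was 1415.3 (exact 95% interval 484.2 to 6864, counting error only). St6galnac3, a sialyltransferase, stood at 29.7, 35.9, 76.4 and 22.6 CPM against 0.0728 and 0.0792 CPM. With 1 pool per gate, Crtac1, Tbx21 and Reln were called, and Il13 (adjusted p = 0.117), St6galnac3 (0.0587) and Fabp12 (0.0599) were not.

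Among genes read in fewer mTEChi cells, the leading 6 were Mep1b, Apol11b, Lrrc15, Myh15, Cd86 and Eomes. Mep1b, a brush border protease, stood at 26.98, 24.9, 21.4 and 10.3 CPM and Apol11b, of the apolipoprotein L family, at 26.3, 18.2, 12.3 and 26.7 CPM, with no read of either in mTEClo. Against a floor of 3 reads over the mTEClo plates they were at least 663.3-fold and at least 624.5-fold higher. Eomes, a T-box factor related to Tbx21, was uneven, at 40.2, 22.1, 40.4 and 2.28 CPM, with 2 reads in mTEClo. Lrrc15 and Myh15 had 17688 and 21291 reads in mTEChi against 1 and 2 in mTEClo, and the call of Myh15 was lost without mTEClo plate 10 (0.0574) or 11 (0.0792).

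The other side of the comparison, what was lower in mTEChi, began with the markers of immature and junctional cells. Of 14 of these, 6 were lower and 1 higher, with a median of −1.33. Pdpn, a mucin-like surface protein of junctional cells, stood at 6.96, 10.2, 3.18 and 23.2 CPM in mTEChi and 74.5 and 69.5 CPM in mTEClo (log2 fold change −2.68, SE 0.64, adjusted p = 0.00611). Plet1, a marker of thymic epithelial progenitors, stood at 1.52, 5.09, 2.53 and 2.82 CPM against 28.98 and 26.7 CPM (−3.16, SE 0.45, adjusted p = 8.17e-05). Every mTEChi plate lay below both mTEClo plates for these genes.

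Krt5, a keratin of the medulla, was spread widely among the mTEChi plates, at 33.9, 173.2, 5.74 and 253.7 CPM against 807.9 and 824.7 CPM, with plates 8 and 14 well above plates 7 and 13. Its call (−2.77, SE 0.87, adjusted p = 0.0324) was lost without mTEChi plate 7 (0.0814) or mTEClo plate 10 (0.123) or 11 (0.128). The 1 gene called higher was the tight junction gene Cldn4, at 155.8, 130.2, 181.6 and 76.3 CPM against 26.4 and 28.6 CPM (2.39, SE 0.64, adjusted p = 0.0136), a call lost without mTEClo plate 10 (0.123) or 11 (0.1101). With either mTEClo plate left out, 2 and 3 of the 14 genes were lower and none higher.

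Of 14 interferon-response genes, 9 were lower in mTEChi and none higher, with a median of −1.39. Irf7, which amplifies type I interferon, stood at 37.4, 39.5, 26.4 and 32.98 CPM in mTEChi and 237.1 and 185.98 CPM in mTEClo (log2 fold change −2.57, SE 0.29, adjusted p = 6.49e-06), and it was the 1 gene of the list called with 1 pool per gate. Stat2, the signal transducer of that pathway, stood at 62.3, 91.7, 55.5 and 81.1 CPM against 346.3 and 325.2 CPM (−2.15, SE 0.30, adjusted p = 6.67e-05). Ifi44, an interferon-induced gene, stood at 5.31, 15.3, 5.24 and 16.3 CPM against 162.2 and 207.4 CPM (−4.08, SE 0.76, adjusted p = 0.000968). Not every member took part, since Irf1, Ifit1, Mx1, Usp18 and Zbp1 were not called. The WT gates had 5 of these genes lower, and with mTEClo plate 10 or 11 left out the Aire-KO count was 5 and 6.

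**Figure D4:**
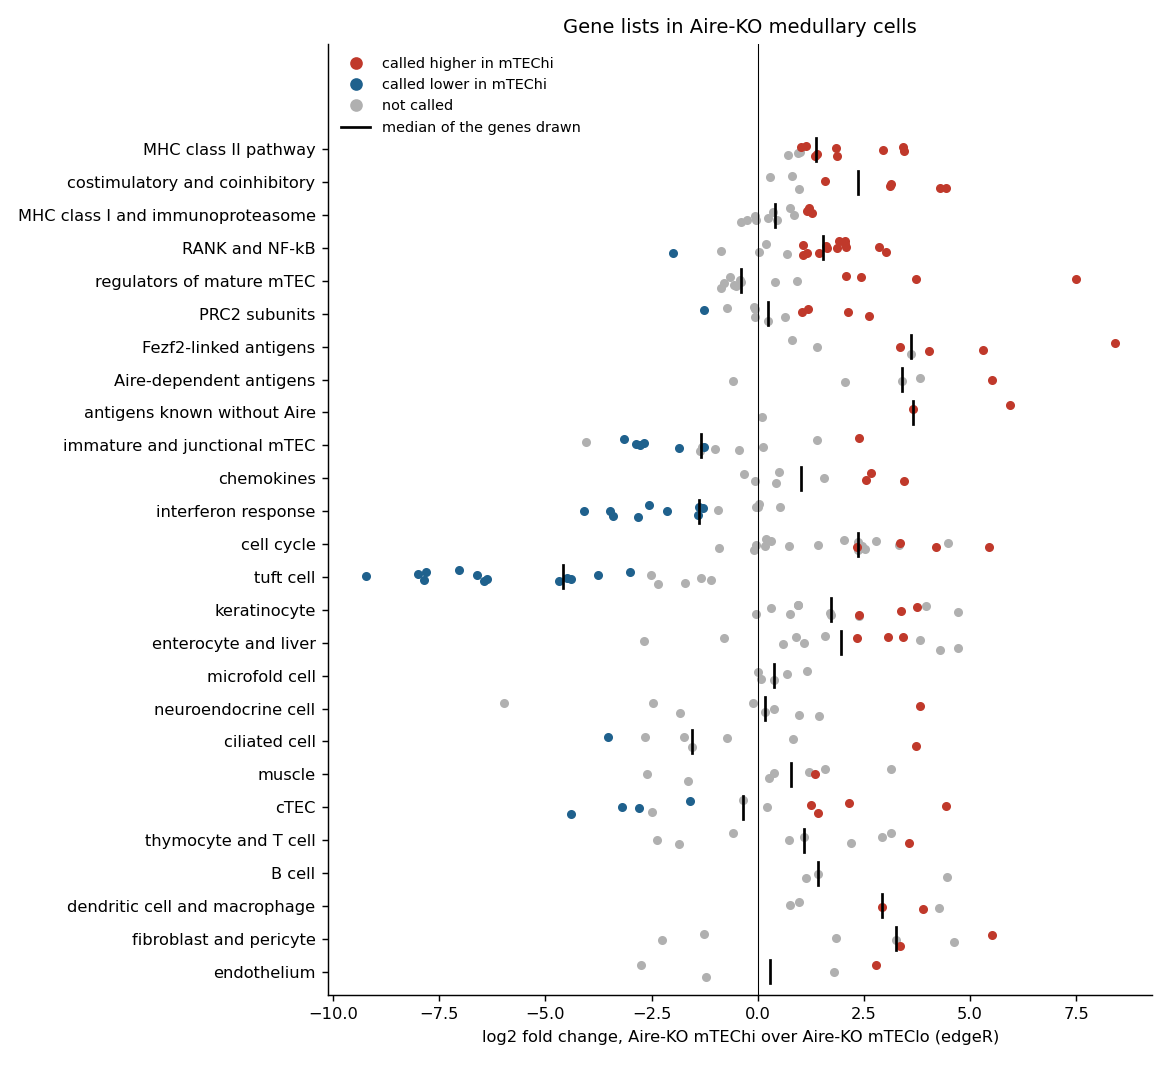
Log2 fold change of Aire-KO mTEChi over mTEClo (x axis) for the tested genes of the 26 lists (each list on its own line), with called genes coloured and a bar at the median of the genes drawn; 23 genes with 3 reads or fewer in a gate are left out. Points of the MHC class II, costimulatory and RANK and NF-kB lists lie mostly to the right of 0, and those of the interferon and tuft cell lists mostly to the left.

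The tuft cell list, for the chemosensory cells of mucosal epithelia, had the lowest median of the 26 lists: 13 of 18 genes were lower in mTEChi, none was higher, the plates of the gates did not overlap for any of the 18, and the median was −4.58. Trpm5, the cation channel of taste transduction, stood at 1.49, 3.04, 0.879 and 0.875 CPM in mTEChi and 419.1 and 411.7 CPM in mTEClo (log2 fold change −7.99, SE 1.35, adjusted p = 0.000438). Chat, the enzyme that makes acetylcholine, stood at 0.186, 0.620, 0.0107 and 0.237 CPM against 70.6 and 51.3 CPM (−7.87, SE 1.497, adjusted p = 0.00117). The list summed to 114.7 to 155.6 CPM in mTEChi plates and 2395 to 2472 CPM in mTEClo plates. Because mTEChi cells were read more deeply, the marking that follows is not shown to pick tuft cells alone. Cells with at least 5 reads of at least 5 of the list genes, counted without thinning, made up 11.8% of mTEChi and 27.3% of mTEClo cells. With those cells left out, 1 gene of the list was lower and 3 were higher, and the median was −0.04. These cells were picked by reads of the same genes, so the values of the tuft list without them follow from that choice and are no test. Of the other lists, MHC class II then had 7 genes higher, RANK and NF-kB 9 higher and 2 lower, and interferon 9 lower. Among genes described above, H2-Aa (adjusted p = 0.0144), Tnfrsf11b (0.0969), Gad1 (0.134) and Cldn4 (0.0662) lost their calls without those cells. Psmb10, Traf2 and Ezh2, also named above, lost theirs too.

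Of the 6 leading genes that were lower and read in at least 50% of mTEClo cells, Trpm5 and Avil, a cytoskeletal protein, belong to the tuft list. Mgp, an inhibitor of calcification, stood at 1.06, 0.375, 0.118 and 1.49 CPM against 66.5 and 81.7 CPM (log2 fold change −6.56, SE 0.95, adjusted p = 9.94e-05). Art4, a blood group antigen encoded near Mgp on chromosome 6, stood at 0.251, 0.864, 0.429 and 1.11 CPM against 39.2 and 28.1 CPM (−5.62, SE 1.22, adjusted p = 0.00324). Fat3, a giant cadherin, stood at 2.80, 0.113, 0.0322 and 5.79 CPM against 196.7 and 218.5 CPM (−6.53, SE 1.30, adjusted p = 0.00172), and was the 1 gene of the 6 called with 1 pool per gate. Wscd1 completed this set. Among genes read in fewer mTEClo cells, 4 of the leading 6 were bitter taste receptors (Tas2r115, Tas2r104, Tas2r113 and Tas2r109), beside Itprid1 and the mucin Muc16. Tas2r115 had no read in mTEChi, at least 2442-fold lower than in mTEClo against a floor of 3 reads. The reads of Muc16 came almost wholly from 1 plate (0.0728 and 108.1 CPM in mTEClo), and its call was lost without that plate, 11 (0.821), as was that of Tas2r109 (0.0523). Without tuft-marked cells the calls of Trpm5 (−1.32, adjusted p = 0.327), Avil (−1.77, adjusted p = 0.0688), Itprid1 (−2.90, adjusted p = 0.327) and Tas2r109 (−4.69, adjusted p = 0.0679) were lost, those of Mgp, Art4, Fat3, Wscd1 and Muc16 were kept, and the other taste receptors had no value.

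The list of cortical genes was divided, with 4 of 11 higher and 4 lower, beside 9.72% and 5.91% of all genes. Cxcl12, a chemokine, stood at 9.63, 8.75, 5.82 and 16.7 CPM in mTEChi and 196.7 and 251.4 CPM in mTEClo (log2 fold change −4.40, SE 0.62, adjusted p = 8.26e-05), and the cathepsin Ctsl at 20.9, 43.2, 16.2 and 129.95 CPM against 492.8 and 499.2 CPM (−3.20, SE 0.62, adjusted p = 0.00129). Psmb11, the proteasome subunit that defines cortical cells, stood at 6.87, 31.4, 2.06 and 8.36 CPM against 54.5 and 85.5 CPM and was not called (adjusted p = 0.0861). Foxn1, Tbata, Ccl25 and Cd83 were the 4 called higher. Foxn1 lost the call without mTEChi plate 13 (0.0524) or mTEClo plate 11 (0.235), Ccl25 without mTEChi plate 7 (0.0687) or 8 (0.0711) or either mTEClo plate (0.162 and 0.190), and Cd83 without either mTEClo plate (0.122 and 0.175). Foxn1 and Ccl25 also lost it without tuft-marked cells. With mTEClo plate 10 left out 2 were higher and 3 lower, and without plate 11 1 and 2.

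Proliferation genes were uneven among the mTEChi plates. Of 21 cell cycle genes, 4 were higher and none lower, against 15 higher between the WT gates. The shares of all genes called higher were 9.72% between the Aire-KO gates and 25.6% between the WT gates. None of the 21 was called in the test of the difference between genotypes, described below. Cdk1, the mitotic kinase, stood at 22.3, 40.4, 36.4 and 65.1 CPM in mTEChi and 1.14 and 3.52 CPM in mTEClo (log2 fold change 4.20, SE 0.78, adjusted p = 0.000995). Mki67, a marker of cycling cells, stood at 9.65, 83.5, 10.5 and 250.4 CPM against 6.38 and 29.2 CPM and was not called (adjusted p = 0.221). Cells marked by these genes, counted as for the tuft list, made up 41.7% of plate 14, 13.6% to 13.95% of the other mTEChi plates and 1.30% of mTEClo cells. With all plates together they made up 20.7% of Aire-KO mTEChi and 19.5% of WT mTEChi cells. Without plate 14, 3 genes of the list were higher and 1 lower, and without mTEClo plate 10 or 11 1 and 2 were higher. With the cells marked by cell cycle genes left out, Ciita, Vtcn1, Ezh2, Jarid2 and Foxn1, described above, lost their calls.

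Of 9 chemokines tested, 3 were higher and none lower, beside 9.72% and 5.91% of all genes. Cxcl10, which attracts CXCR3-bearing cells, stood at 394.6, 418.6, 455.1 and 341.8 CPM in mTEChi and 73.9 and 60.1 CPM in mTEClo (log2 fold change 2.66, SE 0.59, adjusted p = 0.00368), a call lost without mTEClo plate 11 (0.0634). Ccl22, a ligand of CCR4, stood at 0.863, 1.84, 6.79 and 3.23 CPM against 0.267 and 0.356 CPM, where WT mTEChi had a mean of 92.2 CPM, and its call was lost without mTEClo plate 10 (0.101) or 11 (0.0782) or without tuft-marked cells (0.0992).

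Beside the 9.72% of all genes that were called higher, lists of other fates had 3 of 13 genes called higher for keratinocytes, 3 of 12 for enterocytes and liver, 1 of 11 for neuroendocrine cells, 1 of 7 for ciliated cells and 1 of 9 for muscle, and 1 ciliated gene was lower. Of 5 microfold genes edgeR called 0, with 0 at an unadjusted p under 0.05, and DESeq2 called 0. Insm1, a neuroendocrine transcription factor, stood at 296.1, 280.8, 310.7 and 219.7 CPM in mTEChi and 26.9 and 14.1 CPM in mTEClo (log2 fold change 3.83, SE 0.61, adjusted p = 0.000247). Foxj1, of ciliated cells, stood at 58.9, 58.2, 44.4 and 21.9 CPM against 3.06 and 4.30 CPM (3.71, SE 0.63, adjusted p = 0.000426). Both were higher in mTEChi while most of their lists was not called.

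Markers of cells outside the epithelium were read as well, although the sort left out cells with CD45. Of all genes tested, 9.72% were called higher and 5.91% lower. Called higher were Cd4 and Rag1 of 12 thymocyte genes, Lyz2, Csf1r and Adgre1 of 8 dendritic cell and macrophage genes, Pdgfrb and Lum of 7 fibroblast and pericyte genes and Pecam1 of 5 endothelial genes, and none of any list was lower. Without mTEClo plate 10 only Rag1 of these 8 genes stayed called, with adjusted p from 0.0586 (Lyz2) to 0.247 (Pdgfrb) for the others, and without plate 11 only Rag1 and Lyz2, with adjusted p from 0.0982 (Csf1r) to 0.286 (Lum). Of the others, Adgre1 (0.0723), Pdgfrb (0.0556) and Lum (0.0825) also lost it without mTEChi plate 13, Pecam1 without plate 8 (0.0588), and Lum whichever plate was left out. Without tuft-marked cells Lyz2 (0.0727), Csf1r (0.0964), Adgre1, Lum and Pecam1 were not called. Adgre1 and Lum also lost the call without cells marked by cell cycle genes. The dendritic cell and macrophage list summed to 233.98 to 331.2 CPM in mTEChi and 22.6 to 57.1 CPM in mTEClo, most of it Lyz2, at 246.3, 266.5, 228.03 and 199.8 CPM against 2.16 and 31.2 CPM. Summed ranges overlapped between the gates for thymocytes (29.9 to 88.3 CPM and 30.7 to 49.8 CPM), fibroblasts (95.9 to 343.02 CPM and 85.8 to 109.98 CPM) and endothelium (12.97 to 53.9 CPM and 28.2 to 58.2 CPM). The markers of a list did not move together. Pdgfrb, a growth factor receptor of pericytes, stood at 71.4, 58.3, 84.3 and 44.8 CPM in mTEChi and 3.64 and 9.84 CPM in mTEClo, and Csf1r, the receptor that macrophages need for survival, at 30.9, 19.9, 26.9 and 10.02 CPM against 2.72 and 3.41 CPM. Cd4, a coreceptor of T cells, stood at 36.7, 17.2, 29.4 and 11.7 CPM against 2.30 and 1.96 CPM. By contrast, Itgax of dendritic cells reached no more than 0.622 CPM, Siglech of plasmacytoid dendritic cells 0.0970 CPM, Cd3e of the T cell receptor complex 2.13 CPM and Cdh5 of endothelial junctions 1.31 CPM in any Aire-KO plate. Col1a1, a collagen of fibroblasts, stood at 0.306, 0.864, 44.5 and 0.255 CPM against 0.146 and 0.871 CPM, high in plate 13 alone. The part of other cells in the results was not tested.

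Between genotypes, the contrast itself was tested as an interaction. In the Aire-KO mice 68 genes had a larger mTEChi to mTEClo difference than in WT (0.190% of those tested) and 76 a smaller one (0.212%). With cells summed per age and sex label edgeR called 0 and 0 (1.28% and 2.04% of genes at an unadjusted p under 0.05). DESeq2 on the plates called 1.049% and 1.486%, and with 1 Aire-KO plate left out edgeR called 9 and 13 genes without mTEClo plate 10, 21 and 10 without plate 11, 33 and 26 without mTEChi plate 7, 32 and 27 without plate 8 and 23 and 13 without plate 13. Among the 68, both Aire-KO mTEClo plates lay below all WT mTEClo plates in 46 genes and all Aire-KO mTEChi plates above all WT mTEChi plates in 36. Among the 76, the Aire-KO mTEClo plates lay above the WT mTEClo plates in 44 and the Aire-KO mTEChi plates below the WT mTEChi plates in 40. Over all genes tested, these 4 separations were found in 3.82%, 2.04%, 8.61% and 3.08%; the interaction picked the genes, so the counts are a description. WT mTEClo plates differed in their share of tuft-marked cells, from 12.5% to 94.6%, and in age, and without the 3 plates of 8 weeks 1.715% and 0.968% of genes were called; the part of either in the difference was not tested.

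The leading genes with a larger difference were Tlr1, Cd86, Tbx21, Slc6a14, Fabp12 and Bpifc. Tlr1, a receptor of bacterial lipopeptides, stood at 21.5, 14.8, 29.1 and 8.91 CPM in Aire-KO mTEChi, had no read in Aire-KO mTEClo, and in WT ranged from 14.98 to 28.2 CPM in mTEChi and from 0.777 to 8.22 CPM in mTEClo (adjusted p = 0.00328). Tbx21 ranged from 40.9 to 87.8 CPM in WT mTEChi and from 0.947 to 6.99 CPM in WT mTEClo, so that both Aire-KO mTEClo plates lay below all WT mTEClo plates (difference of log2 fold changes 6.22, SE 0.83, adjusted p = 0.00252). In mTEChi the plates of the 2 genotypes overlapped for both genes. Fabp12, a fatty acid binding protein, was in addition higher in every Aire-KO mTEChi plate (42.9, 24.8, 44.4 and 21.3 CPM) than in every WT mTEChi plate (8.83 to 19.9 CPM). Without Aire-KO mTEClo plate 10 the adjusted p was 0.0528 for Tlr1, 0.0528 for Tbx21 and 0.194 for Fabp12. Without plate 11 it was 0.0532 for Tlr1 and 0.203 for Fabp12, which also lost the call without mTEChi plate 7, 8 or 13.

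The leading genes with a smaller difference were Muc16, Muc2, Muc5ac, Rph3a, Mroh7 and Chrna4. Rph3a, a synaptic vesicle protein, stood at 0.459, 0, 0.397 and 0.510 CPM in Aire-KO mTEChi and at 7.65 to 47.5 CPM in WT mTEChi (difference −7.66, SE 1.29, adjusted p = 0.0147). Mroh7 stood at 1.96, 4.58, 2.16 and 1.55 CPM against 4.41 to 33.8 CPM (difference −7.13, SE 0.89, adjusted p = 0.00214), and Muc5ac, a secreted mucin, at 0.382, 0.207, 0.0751 and 0.255 CPM against 6.46 to 379.8 CPM. No plate of mTEClo of either genotype held more than 8.52 CPM of these 3 genes. For Mroh7 the mTEChi plates of the 2 genotypes overlapped. On the mTEClo side, Mroh7 stood at 0.631 and 0.515 CPM in Aire-KO against 0 to 0.0729 CPM in WT, so its difference rests in part on very few WT reads. The same holds for Rph3a, at 0.0485 and 0.297 CPM in Aire-KO mTEClo against 0.0167 to 0.109 CPM in WT mTEClo. Chrna4, a nicotinic receptor subunit, and Dll4, a Notch ligand, differed on the mTEClo side. In mTEChi the plates of the 2 genotypes overlapped for Dll4 (27.02 to 38.7 CPM in Aire-KO, 29.01 to 83.1 CPM in WT) but not for Chrna4. Dll4 stood at 38.3 and 47.2 CPM in Aire-KO mTEClo against 4.66 to 17.8 CPM in WT mTEClo (difference −2.98, SE 0.53, adjusted p = 0.0195), and Chrna4 at 7.93 and 15.7 CPM against 0.0333 to 2.198 CPM. Without Aire-KO mTEClo plate 11 the adjusted p was 0.374 for Rph3a, 0.107 for Muc5ac, 0.0789 for Chrna4 and 0.0978 for Dll4. Without plate 10 it was 0.0528, 0.0528 and 0.0609 for the last 3, each of which also lost the call without 1 or more of the mTEChi plates, while Mroh7 kept it whichever plate was left out.

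**Figure D5:**
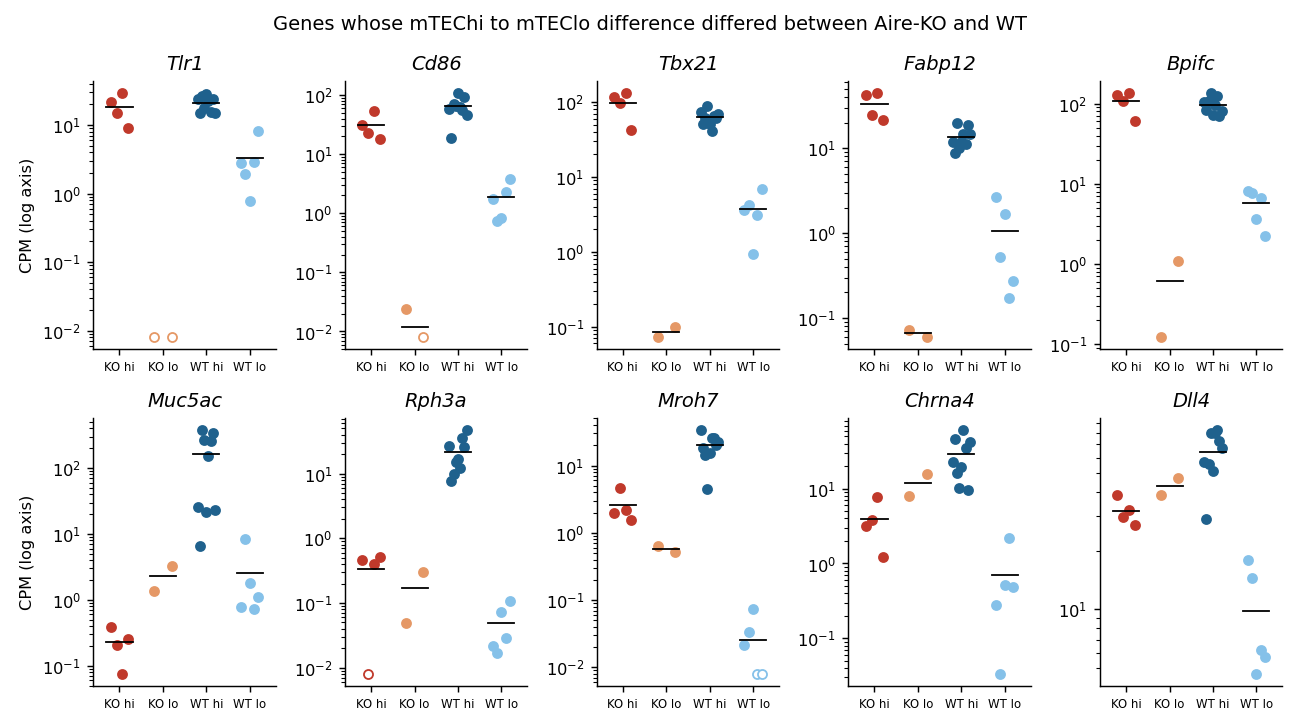
Reads per 1000000 reads (CPM) in each plate (log axis; open circles mark plates with no read) in the 4 adult groups for 10 genes whose mTEChi to mTEClo difference was larger or smaller in Aire-KO than in WT; lines are group means. Tlr1, Cd86 and Tbx21 are lower in Aire-KO than in WT mTEClo plates, Rph3a is lower in every Aire-KO mTEChi plate than in every WT mTEChi plate, and Dll4 is higher in Aire-KO than in WT mTEClo plates.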

How the data were processed

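The deposited whole-number counts of reads per Ensembl gene (48437 genes, 1980 cells) were used: 338 cells of Aire-KO mTEChi, 154 of Aire-KO mTEClo, 620 of WT mTEChi and 357 of WT mTEClo. Per the submitters' processing notes and the study's methods, the authors made these counts with fastp 0.20.0, STAR 2.7.3a, SAMtools 1.9, Picard 2.21.1 and HTSeq 0.11.2 on mm10 with an Ensembl annotation, leaving out poorly mapped and duplicate reads and shallow cells. Without molecular identifiers, the removal of duplicates can lower the counts of abundant genes. A second table of the authors, scaled by length and library, was not used. Gene names and positions came from GENCODE M21 (GRCm38), which holds 48263 of the identifiers.

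Counts were summed per plate, and 35880 genes that passed filterByExpr were fitted with edgeR 4.0.16 (R 4.3.3) on the 20 adult mTEC plates, with TMM scaling, a mean per group, 16 residual degrees of freedom and the quasi-likelihood test. The members and lists were chosen with earlier results of these data known. Named genes were list members and, in each direction, the 6 with the largest log2 fold change read in at least 50% and the 6 read in fewer of the cells of the higher gate, among called protein-coding genes with at least 20 CPM and plates without overlap, leaving out predicted and Riken symbols; the 6 with the largest difference between genotypes were taken likewise, without the condition on overlap. The alternatives were RLE scaling, no filter, DESeq2 1.42.0, limma 3.58.1 with equal weight per cell, the Aire-KO plates alone, cells thinned to 200000 reads, pools per age and sex label, and plates or marked cells left out. The values of 1 list of other cells are not reported here. Calls are given as percent of the genes tested; the pools called 169 genes higher, and plates without mTEClo plate 10 called 1744 higher and 1025 lower. In data simulated for Aire-KO mTEChi against mTEClo, with 50 of 35880 genes changed per fold, 4% of 2-fold, 34% of 4-fold, 64% of 8-fold and 48% of 16-fold changes were recovered, with 1 false call. Fewer genes were changed than were called in the data, which made the adjusted p harder to pass. Recovery in the data can therefore be higher. Changes of exactly 2-fold also lie on the fold cutoff, which part of them would miss with any number of plates. Simulated plates were independent, so the false calls do not cover plates that share mice.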

Additional observations from a re-analysis of the deposited data

Results flagged for a closer look

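Single plates stood apart from the rest of their group for 11 groups of plates (8.73% of those examined). The cutoff was set to flag about 1 in 20 groups of normally spread values, a rate that was not measured in these data. Aire-KO mTEChi plate 14 was the lowest of its group for 4 genes: Rel at 169.7 CPM (others from 251.99 to 257.8), Nfkbia at 516.3 CPM (634.8 to 655.9), Crp at 7.216 CPM (14.38 to 15.37) and Rag1 at 11.08 CPM (19.93 to 21.43). It is also the plate in which 41.7% of the cells carried cell cycle genes; the part of that in the 4 values was not tested. Itprid1 stood at 0.2816 CPM in Aire-KO mTEChi plate 8 and at no more than 0.0328 CPM in the others.

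Among WT plates, Fezf2 reached 519.5 CPM in mTEChi plate 3, Slc6a14 23.68 CPM in mTEChi plate 4 and Muc2 159.3 CPM in mTEChi plate 21, the plate of females. In WT mTEClo, Tlr1 reached 8.216 CPM in plate 34, Muc5ac 8.52 CPM in plate 5 and Chrna4 2.198 CPM in plate 33. Each was the highest of its group.

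The difference between genotypes was tested by the interaction in edgeR and passed for 13 named genes. The difference of log2 fold changes, Aire-KO minus WT, was 10.51 for Tlr1, 6.28 for Cd86, 6.22 for Tbx21, 5.88 for Slc6a14, 5.45 for Fabp12 and 3.53 for Bpifc. It was −17.56 for Muc16, −11.19 for Muc2, −9.17 for Muc5ac, −7.66 for Rph3a, −7.13 for Mroh7, −6.77 for Chrna4 and −2.98 for Dll4. For Tlr1, Cd86 and Muc2, with 0 to 2 reads in 1 of the Aire-KO gates, the fitted values depend on the prior count and are no measure of size. The values of Rph3a and Mroh7 rest in part on very few reads in WT mTEClo, at no more than 0.109 and 0.0729 CPM in any plate. The value of Muc16 rests on Aire-KO mTEClo plate 11, without which it was −8.03 (adjusted p = 0.483). Mroh7 alone of the 13 kept its call whichever Aire-KO plate was left out; without mTEClo plate 10 the adjusted p was 0.148 for Cd86, 0.137 for Slc6a14, 0.165 for Bpifc and 0.0561 for Muc2. None of the 13 was called with 1 pool per Aire-KO gate.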

How the results depend on the processing

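The percent of genes called higher and lower between the Aire-KO gates (9.72 and 5.91) came from numbers of genes that stayed within 1.5 times their value under RLE scaling, no filter, DESeq2, limma, the Aire-KO plates alone, thinned cells, and without tuft-marked or cycling cells, WT mTEChi plate 21 or the WT mTEClo plates of 8 weeks. Pools per age and sex label gave 0.442% and 0.0418%. With 1 Aire-KO plate left out at a time they ranged from 4.43 to 10.1% and from 2.60 to 6.70%. The 0.190% of genes with a larger difference in Aire-KO became 1.05% with DESeq2, 1.72% without the WT mTEClo plates of 8 weeks, 0 with pools and 0.0229 to 0.271% with 1 Aire-KO plate left out. The 0.212% with a smaller one became 1.49%, 0.968%, 0 and 0.0254 to 0.190%, with 0.440% by limma and 0.140% without cycling cells. The cause was not tested. The correlation between genotypes was 0.779 (Pearson) and 0.755 (Spearman) by limma, which tests fewer genes, Spearman was 0.485 with no filter, and with 1 Aire-KO plate left out they ranged from 0.447 to 0.519 and from 0.524 to 0.595.

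Of the named genes called between the Aire-KO gates, 64 kept their call under every alternative but the pools, 15 of them with the pools too, out of 17 alternatives. The sign changed for 5 tuft genes without tuft-marked cells, which were picked by reads of the same list: Plcb2 to 0.0818, Gnat3 to 0.29, Gng13 to 3.08, Sh2d6 to 3.39 and Rgs13 to 1.45. RLE scaling moved the median log2 fold change of all genes from 0.08 to 0.10. No paired analysis was possible because the 2 Aire-KO gates share no plate and the labels number cells, not mice. With 2 mTEClo plates, changes of 2-fold were rarely called in simulated data, where fewer genes changed than were called here. Such changes also lie on the 2-fold cutoff itself. A gene not called is not shown to be equal.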
